A study of Arabidopsis thaliana with 4 samples.

Results

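The 10 genes described here encode enzymes that build fatty acids in the plastid of Arabidopsis thaliana, chosen by locus from the 27416 protein-coding loci of the deposited tables. They are 3 subunit genes of the plastid acetyl-CoA carboxylase (CAC2, BCCP1 and BCCP2), 3 ketoacyl-ACP synthase genes (KASI, KASII and KASIII), the enoyl-ACP reductase gene MOD1, the stearoyl-ACP desaturase gene SSI2 and the acyl-ACP thioesterase genes FATA1 and FATB. ACP stands for acyl carrier protein. RNA was sequenced from whole seeds with embryos at the post-mature green stage, in ecotype Col 0, from the wild type and from the ddcc mutant. The mutant carries the Col 0 background too and has its name from DRM1, DRM2, CMT2 and CMT3, genes of DNA methyltransferases that act mostly on cytosines outside CG sites. The labels give neither its alleles nor the age of the seeds in days, and a seed holds embryo, endosperm and seed coat together. Each genotype had 2 libraries labelled as biological replicates.

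Fatty acid synthesis in plants takes place in the plastid. Acetyl-CoA carboxylase makes malonyl-CoA, the condensing enzymes add carbon units from malonyl-ACP to a growing chain held on acyl carrier protein, and each round ends with the enoyl-ACP reductase. The stearoyl-ACP desaturase then makes oleoyl-ACP, and thioesterases release the chains for export. In Arabidopsis embryos this pathway feeds the storage oil laid down during maturation, and the transcription factor WRI1 is a known activator of many of its genes.

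Inferred depths ranged from 1122934 to 1166635 reads in ddcc, and were 3416071 (replicate 1) and 1292023 (replicate 2) in wild type. Wild-type replicate 1 was thus by far the deepest. DRM2, the check of the genotype, was called lower in ddcc (log2 fold change -2.36, SE 0.39, limma adjusted p = 0.00347). Of the other genes that give the mutant its name, DRM1 was at 0 in all libraries. CMT2 had 2 reads in ddcc and 1 in wild type and was not tested. CMT3 overlapped between the genotypes and was not called (log2 fold change -0.24, limma adjusted p = 0.891). The check thus rests on DRM2 alone. Wild-type replicate 2 is called wild type in its title, description and genotype, but its source name reads ddcc. Its DRM2 value was 39.6, close to the 39.3 of wild-type replicate 1, while ddcc had 4.85 and 8.33. For the enzymes, the called pathway genes and the ratios, values without that library are given beside those it moved most. All 10 genes passed the filter on low values, a mean of at least 1.56 over the 4 libraries, but KASI and FATA1 had wild-type means below it and passed through their ddcc values.

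WRI1 is known to bind a motif named the AW-box, which is CNTNG, then 7 free bases, then CG, where N is any base. It was searched on both strands. In the window from 250 bases before to 50 bases after the annotated transcript start, none of the 10 enzymes held it, against 30.8% of 39 other genes of the pathway and 11.9% of 27443 protein-coding genes. In the 300 genomic bases before the annotated start codon, a window chosen after the first had been seen, 6 of the 10 enzymes held it (60%), against 27 of those 39 genes (69.2%) and 13.5% of all protein-coding genes. The 10 matches in the 6 enzymes all lay in untranslated exon sequence, 7 on the strand of the gene and 3 on the opposite strand. The matches of all 6 enzymes are shown. For 4 of them, CAC2, BCCP1, KASI and FATA1, both ddcc libraries lay above both wild-type libraries, as was seen in 25.7% of all tested genes. Of these, KASI and FATA1 passed the filter only through their ddcc values, so that they could be tested only with a higher ddcc mean. BCCP2 and KASIII overlapped between the genotypes. KASII, whose ddcc libraries also lay above, had no match in this window. Of the called pathway genes with a match, described below, ACP2, ACP3 and PKP-ALPHA were higher in ddcc and AT2G22230 was lower. A link between the matches and the levels was not tested. Sequences are from the RefSeq copy of the TAIR10.1 build, written 5′ to 3′ along the strand that carries the match. Capitals mark the fixed letters of the motif.
CAC2, chr5:13584224-13584253, opposite strand: gagggaaaCcTcGtgattatCGaaacagat
BCCP1, chr5:5363059-5363088, gene strand: gttgtgctCtTtGgtttcatCGagagagaa
BCCP2, chr5:5038811-5038840, gene strand: ttgggtttCtTcGtaagcatCGaaatcaga
BCCP2, chr5:5038918-5038947, gene strand: tcctacttCcTcGgtttcatCGtccactgt
KASI, chr5:18776768-18776797, gene strand: aaaaatttCcTcGaataattCGctgttttt
KASI, chr5:18776666-18776695, gene strand: tttcacaaCaTcGtacttatCGccttcctc
KASIII, chr1:23192290-23192319, gene strand: cctcttcgCtTcGgtacttcCGaagatttc
KASIII, chr1:23192293-23192322, opposite strand: aatgaaatCtTcGgaagtacCGaagcgaag
FATA1, chr3:9148418-9148447, opposite strand: gtttgcccCtTgGtggagttCGaaattacg
FATA1, chr3:9148370-9148399, gene strand: cttcttcaCcTcGgacccatCGgagagaag

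The KASIII matches overlap each other on opposite strands and are not separate stretches. A match in this search describes the letters and is no evidence of binding. For KASII, MOD1, SSI2 and FATB, no match says only that these letters are not in this window.

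**Figure D1:**
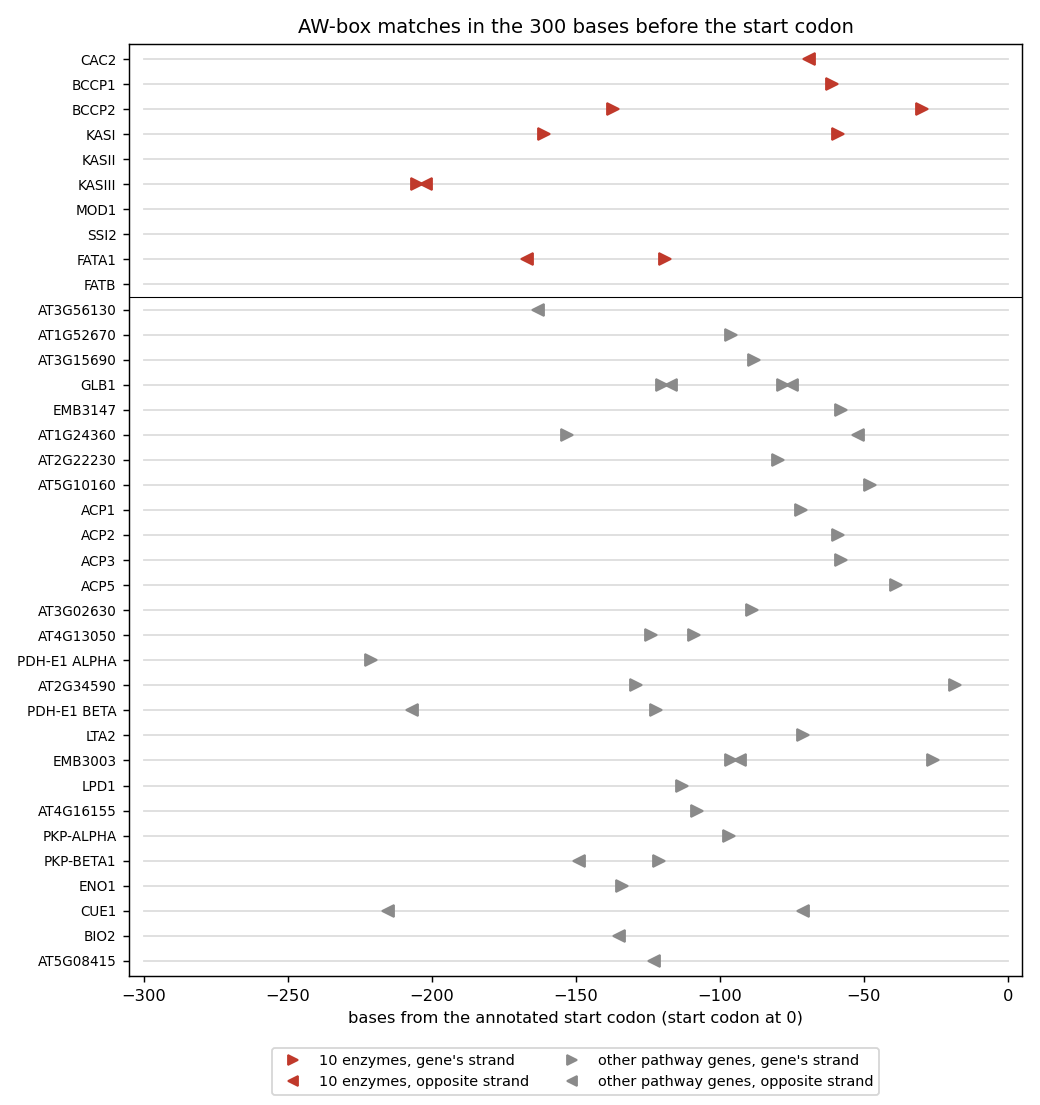
Positions of AW-box matches in the 300 bases before the annotated start codon, on a horizontal axis in bases with the start codon at 0. Triangles point right for the strand of the gene and left for the opposite strand, in red for the 10 enzymes and in grey for the 27 other pathway genes with a match. The matches of the 6 enzymes ended 15 to 190 bases before the start codon, and the printed stretches run on past them. Triangles are drawn a few bases further from the start codon than the centres of the matches.

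Among the acetyl-CoA carboxylase subunits, CAC2 rose 3.05-fold in ddcc, BCCP1 had higher values in both ddcc libraries without passing the test, and BCCP2 overlapped between the genotypes. CAC2 (AT5G35360) encodes the biotin carboxylase subunit, which loads carbon dioxide onto biotin. It lies on chromosome 5 from 13584104 to 13588496 on the plus strand, with 16 exons. Values here are normalised read counts, always listed for replicate 1 and then replicate 2 of a genotype. For CAC2 they were 20.1 and 21.7 in ddcc, against 5.15 and 6.52 in wild type. Both ddcc libraries were well above both wild-type libraries, and the libraries of each genotype lay close together. This gave a log2 fold change of 1.61 (SE 0.42, 95% interval 0.70 to 2.52), with a limma adjusted p of 0.036. All fold changes are on the log2(value + 1.56) scale, which understates the change of low genes. The values rest on 35 reads in ddcc and 15 in wild type, a depth-corrected read ratio of 3.68 with a 95% interval of 1.96 to 7.25. Such read intervals cover counting error only, since amplified reads are not independent molecules. In a bulk seed sample, fewer cells of a type and less RNA per cell cannot be told apart. The call was lost when any 1 library was left out, at limma adjusted p of 0.379 and 0.435 for ddcc 1 and 2 and of 0.124 and 0.0957 for wild type 1 and 2, with log2 fold changes of 1.47 to 1.74. It was also lost with no filter (0.0967) and in limma without a trend (0.0957). The transcript shares 64 exon bases with the neighbouring locus AT5G35370, and no source used here says that strand was used in counting.

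BCCP1 and BCCP2 encode alternative forms of the biotin carboxyl carrier protein, which holds the biotin on a lysine. Their coding sequences were 66.6% identical over the aligned bases. The stretch that codes for the biotin site is shown because it is the part whose function the isoforms share, and 32 of its 45 bases were the same. Capitals mark the lysine codon, codon 245 of BCCP1 and codon 220 of BCCP2. Each stretch is coding sequence with an intron removed, at chr5:5361335-5361607 on the minus strand for BCCP1 and chr5:5040118-5040264 on the plus strand for BCCP2.
BCCP1: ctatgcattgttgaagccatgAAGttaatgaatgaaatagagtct
BCCP2: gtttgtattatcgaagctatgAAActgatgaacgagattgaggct

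BCCP1 (AT5G16390, symbol CAC1 in the annotation) lies on chromosome 5 from 5360789 to 5363297 on the minus strand. It had normalised read counts of 7.06 and 6.10 in ddcc, against 0.779 and 3.72 in wild type. The lower ddcc value stood above the higher wild-type value, but the wild-type libraries differed widely from each other, on 2 and 3 reads. The log2 fold change of 1.21 (SE 0.60, 95% interval -0.07 to 2.49) did not pass the test (limma adjusted p = 0.266). It was 0.62 without wild-type replicate 1 and 1.8 without wild-type replicate 2. BCCP2 (AT5G15530) lies on chromosome 5 from 5038563 to 5040840 on the plus strand. Its values were 8.07 and 2.63 in ddcc, against 4.81 and 4.05 in wild type. Here the ddcc libraries spread around the wild-type libraries, with a log2 fold change of 0.09 (SE 0.58, 95% interval -1.15 to 1.33, limma adjusted p = 0.951). Its sign turned without ddcc replicate 1 (-0.51), without wild-type replicate 2 (-0.0042) and with quantile normalisation (-0.19). BCCP2 is uncertain, since 309 of its exon bases overlap AT5G15520 and AT5G15533.

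Of the condensing enzymes, KASI and KASII had higher values in both ddcc libraries than in either wild-type library, while KASIII overlapped, and none of the 3 passed the test. KASIII (AT1G62640), which starts each chain by condensing acetyl-CoA with malonyl-ACP, lies on chromosome 1 from 23192146 to 23195103 on the plus strand. Its values were 5.92 and 6.06 in ddcc, against 3.42 and 6.39 in wild type. The ddcc libraries were nearly equal and fell between the wild-type libraries. KASIII had a log2 fold change of 0.26 (SE 0.53, 95% interval -0.87 to 1.40, limma adjusted p = 0.827). It turned below 0 without wild-type replicate 1 (-0.07) and with quantile normalisation (-0.0046), and was 0.60 without wild-type replicate 2.

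KASI (AT5G46290) elongates the chain up to palmitoyl-ACP and lies on chromosome 5 from 18774056 to 18776839 on the minus strand. Its values were 10.5 and 7.39 in ddcc, against 1.57 and 1.37 in wild type. The genotypes stood far apart next to the spread within each, though on 15 reads in ddcc and 4 in wild type. Its log2 fold change of 1.78 (SE 0.55, 95% interval 0.59 to 2.97) was the highest of the 10 enzymes and missed the threshold (limma adjusted p = 0.0732). The depth-corrected read ratio was 5.91, with a counting interval of 1.88 to 24.5. When the totals of nuclear genes were made equal it was called, at a log2 fold change of 2.05 (adjusted p = 0.0255).

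KASII (AT1G74960, symbol FAB1 in the annotation) elongates palmitoyl-ACP to stearoyl-ACP and lies on chromosome 1 from 28151920 to 28156350 on the minus strand. Its values were 9.57 and 13.2 in ddcc, against 6.11 and 2.89 in wild type. The groups did not overlap, with the wild-type libraries about as far from each other as the nearer one was from ddcc. For KASII the log2 fold change was 1.13 (SE 0.51, 95% interval 0.05 to 2.22, limma adjusted p = 0.213), and it was 1.53 without wild-type replicate 1 and 0.74 without wild-type replicate 2. The coding sequences of KASI and KASII were 64.6% identical.

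MOD1 (AT2G05990), the enoyl-ACP reductase that closes each round of elongation, lies on chromosome 2 from 2322215 to 2325197 on the plus strand. It was among the lowest of the 10 enzymes, with values of 2.38 and 2.43 in ddcc, against 1.91 and 3.83 in wild type. The ddcc libraries fell between the wild-type libraries, and each library held 2 to 4 reads. The log2 fold change was -0.13 (SE 0.61, 95% interval -1.44 to 1.18, limma adjusted p = 0.937), an interval that holds a rise and a fall of 1 on the log2 scale. Its sign turned with equal totals of nuclear genes (0.12), with voom on the inferred reads (0.05) and without wild-type replicate 2 (0.19).

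SSI2 and FATB carried the most reads of the 10 enzymes and showed overlapping levels in the genotypes. SSI2 (AT2G43710), the main stearoyl-ACP desaturase of the plant, lies on chromosome 2 from 18119873 to 18122889 on the plus strand. Its values were 87.4 and 96.6 in ddcc, against 100.6 and 60.2 in wild type. Wild-type replicate 1 was the highest and wild-type replicate 2 the lowest of the 4 libraries. In the fit its log2 fold change was 0.23 (SE 0.28, 95% interval -0.36 to 0.83, limma adjusted p = 0.687), and -0.13 without wild-type replicate 2. FATB (AT1G08510), a thioesterase with a preference for saturated chains, lies on chromosome 1 from 2691062 to 2694547 on the minus strand. Its values were 73.4 and 88.1 in ddcc, against 66.0 and 76.3 in wild type. The ranges overlapped, and the log2 fold change was 0.18 (SE 0.25, 95% interval -0.37 to 0.72, limma adjusted p = 0.75), running from 0.05 without ddcc replicate 2 to 0.31 without ddcc replicate 1 and standing at 0.28 without wild-type replicate 2. For both genes the interval leaves out a rise or a fall of 1 on the log2 scale.

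FATA1 (AT3G25110, symbol FaTA in the annotation), the thioesterase with a preference for oleoyl-ACP, lies on chromosome 3 from 9146271 to 9148525 on the minus strand. It was close to the limit of detection, with values of 3.51 and 2.48 in ddcc, against 0.536 and 0.0241 in wild type. Both ddcc libraries were above both wild-type libraries, but on 5 reads against 1. The log2 fold change of 1.31 (SE 0.68, 95% interval -0.14 to 2.76) did not pass the test (limma adjusted p = 0.286), and the depth-corrected read ratio was 7.89 with a counting interval of 0.882 to 373.

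**Figure D2:**
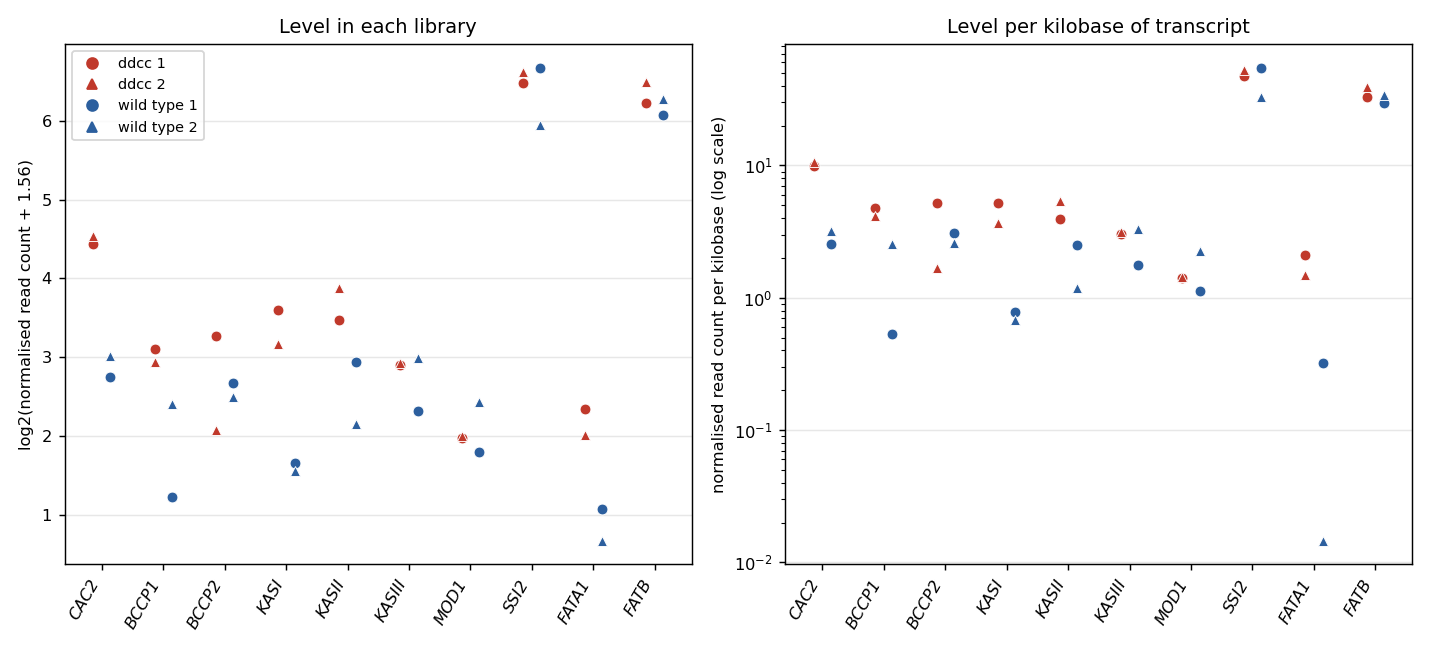
The 10 enzymes in each library, as log2(normalised read count + 1.56) on the left and as normalised read count per kilobase of transcript on a log axis on the right. Red points are ddcc and blue points wild type, with circles for replicate 1 and triangles for replicate 2. SSI2 and FATB stand above the other 8 enzymes in every library, and the red and blue points of CAC2, BCCP1, KASI, KASII and FATA1 do not overlap.

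Counted together, 1 of the 10 enzymes was called higher in ddcc and 0 lower, beside 3.03% of the 15780 tested genes called higher, 3.45% called lower and 6.48% called in either direction. At an unadjusted limma p under 0.05, 3 of the 10 were higher (CAC2, KASI and KASII) and 0 lower, beside 10.1% of all tested genes higher and 11.1% lower. In 5 of the 10 both ddcc libraries lay above both wild-type libraries, where 25.7% of all tested genes did so, and in 0 of the 10 both lay below, where 25.3% did. KASI and FATA1 passed the filter only through their ddcc values, so that they could be tested only with a higher ddcc mean. Both are among these 5 and among the enzymes with a log2 fold change above 0, and KASI is among the 3. A log2 fold change above 0 was found in 9 of the 10, beside 51.1% of tested genes. Its median over the 10 enzymes was 0.70, beside 0.02 over all tested genes, and it was 0.32 with a pseudocount 5 times as large. Without ddcc replicate 1 it was 0.31 over the 9 enzymes that could then be tested, and with each of the other libraries left out it was 0.61 to 0.69. When the totals of nuclear genes were made equal, the median of all tested genes moved from 0.02 to 0.37 and that of the 10 enzymes to 1.04, with 2 called higher beside 9.09% of all tested genes. Two-sided tests were used throughout, and these counts are descriptions with no test of the list. The endosperm marker EPR1, the embryo marker ABI3, RBCS1A and the organelle genomes were also higher in both ddcc libraries. The endosperm marker FIS2, the embryo markers OLEO1 and CRA1 and the seed coat marker TT12 were lower in both. The summed seed coat markers were higher in both as a share of the deposited total but overlapped as normalised read counts. Values or fold changes of all these are given further on, and their part in these counts was not tested.

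**Figure D3:**
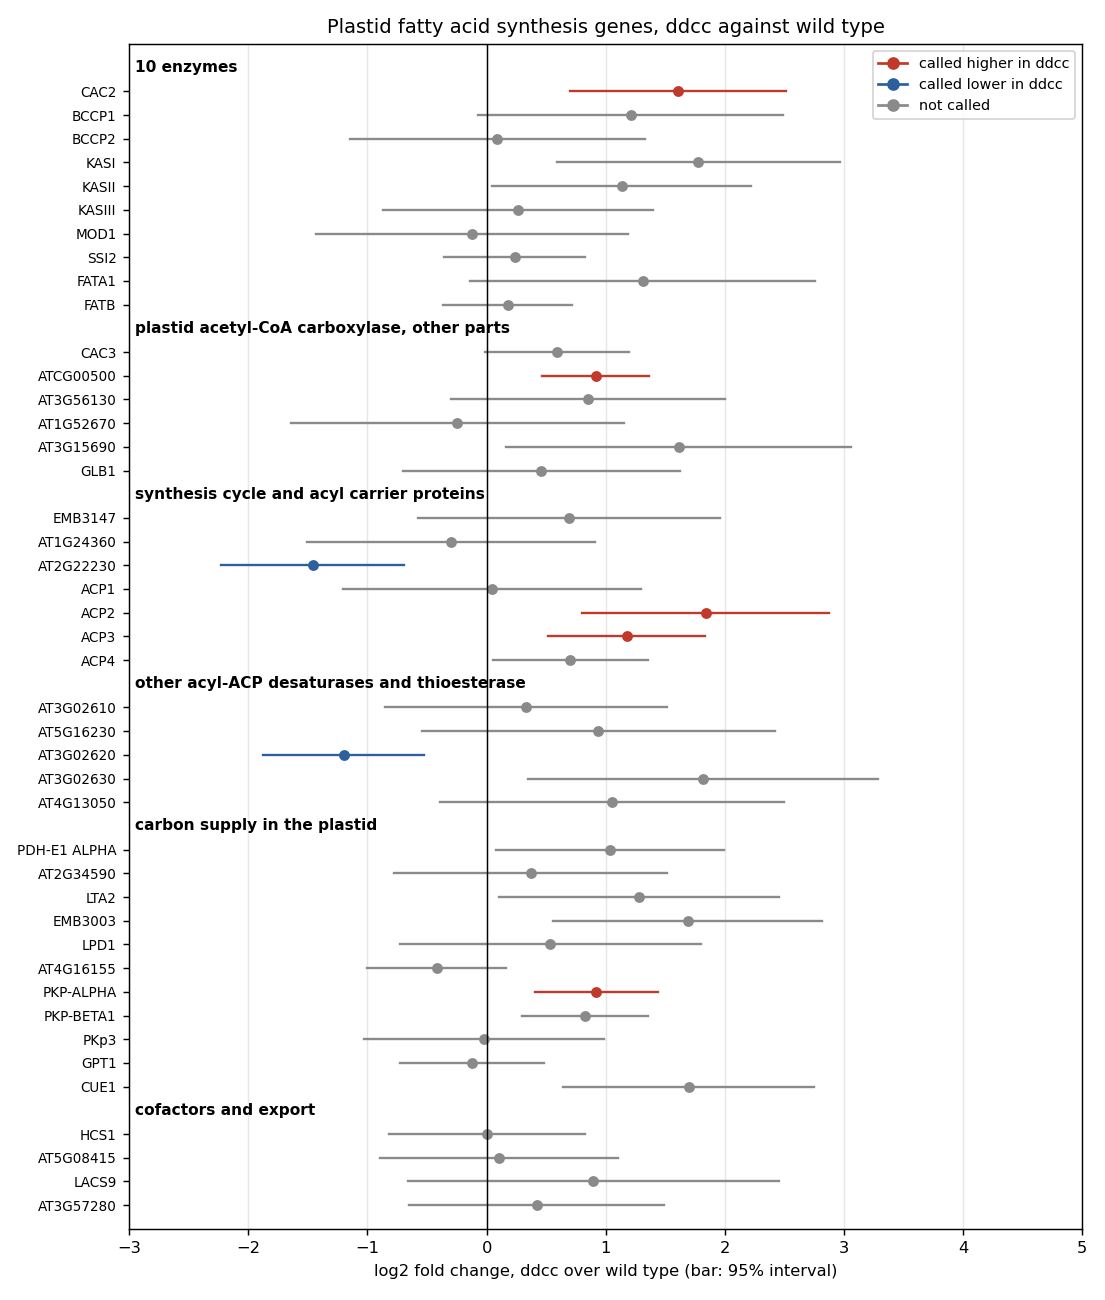
Log2 fold changes of ddcc over wild type with 95% intervals for the 10 enzymes and for the 33 tested genes of 5 lists of other pathway genes. Red marks genes called higher in ddcc, blue genes called lower and grey genes not called. CAC2, at 1.61, is the red point among the 10 enzymes, and the interval of MOD1, whose point lies below 0, runs from -1.44 to 1.18.

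Levels were compared between the enzymes as normalised read counts per kilobase of annotated transcript. In ddcc SSI2 was highest at 50.2 ± 3.55 (SD, n = 2), followed by FATB at 36.0 ± 4.65 and CAC2 at 10.3 ± 0.561, each clear of the next in both libraries. KASII at 4.67, BCCP1 at 4.48, KASI at 4.45, BCCP2 at 3.42 and KASIII at 3.09 followed, each overlapping the next. FATA1 at 1.81 ± 0.441 and MOD1 at 1.41 ± 0.0234 came last, in that order in both libraries. In wild type SSI2 at 43.8 ± 15.6 and FATB at 31.7 ± 3.24 were again the highest levels per kilobase and overlapped each other. Below them the levels ran from CAC2 at 2.86 ± 0.475 through BCCP2, KASIII, KASII, MOD1 and BCCP1 to KASI at 0.730 ± 0.0728, each overlapping the next. FATA1 was lowest, at 0.169 ± 0.218. CAC2 thus stood apart from the lower enzymes in ddcc and within their range in wild type.

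The summed normalised read count of the 10 enzymes was 228 and 247 in ddcc, against 191 and 165 in wild type. As a share of the deposited total the sum took 0.0172% and 0.0175% in ddcc against 0.0105% and 0.00969% in wild type. The ddcc libraries were higher on both scales, 1.33 times on the summed level and 1.72 times on the share. The share divides the same sum by deposited totals of 1.33e6 and 1.41e6 in ddcc, against 1.82e6 and 1.71e6 in wild type. Its larger ratio thus comes from the lower ddcc totals and is no separate result. An exact permutation test over the 4 libraries gave p = 0.33 for both, the smallest p this design allows. SSI2 and FATB together made up 70.5% and 74.9% of the summed level in ddcc, against 87.3% and 82.6% in wild type. The other 8 enzymes, a set picked after the values were seen and given with no test, summed to 67.2 and 62.0 in ddcc, against 24.3 and 28.8 in wild type.

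Ratios between enzymes were taken within a library with 1.56 added to each value, so that for low values they still depend on the scaling of the library. On the log2 scale SSI2 exceeded KASII by 3.0 and 2.74 in ddcc, against 3.74 and 3.80 in wild type. The difference between ddcc and wild type was -0.90 and the groups did not overlap. It was -0.43 with a pseudocount 5 times as large and -0.51 with quantile normalisation. The log2 ratio of FATA1 to FATB was -3.88 and -4.47 in ddcc, against -5.01 and -5.61 in wild type, a difference of 1.13 with no overlap. This difference was 1.68 with a pseudocount 0.5 times as large and 0.25 with one 5 times as large. The ratio of BCCP2 to BCCP1 differed by -1.12 and that of KASII to KASI by -0.65, and both overlapped between the genotypes. With 1 library left out, the first ran from -0.44 (without wild-type replicate 1) to -1.8 (without wild-type replicate 2). The second ran from -0.23 (without ddcc replicate 1) to -1.07 (without ddcc replicate 2) and was -0.30 without wild-type replicate 1 and -0.99 without wild-type replicate 2. The ratio of FATA1 to its paralog AT4G13050 (FATA2), 81.8% identical to it in coding sequence, differed by 0.26 with overlap, by 1.13 without wild-type replicate 1 and by -0.61 without wild-type replicate 2. Exact permutation tests of these 5 ratios gave p of 0.33 for the pairs that did not overlap, again the smallest possible, and 0.667 to 1 for the others. After Benjamini-Hochberg adjustment over the 5 ratios the exact p-values were 0.833 to 1.

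**Figure D4:**
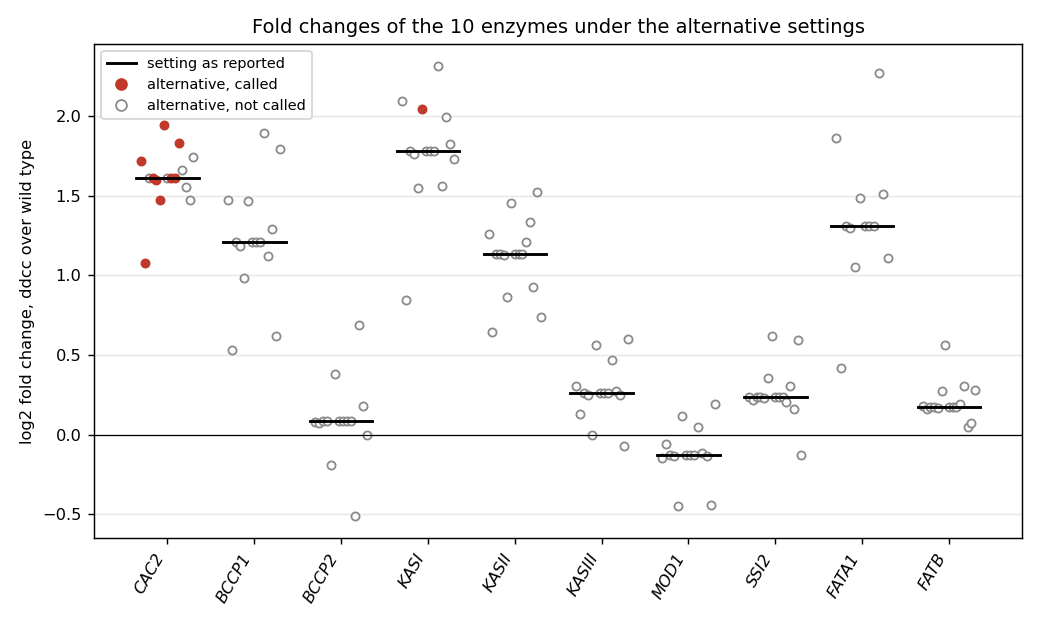
Log2 fold changes of the 10 enzymes under the alternative settings that could be fitted for each gene. Black bars are the values as reported, filled red circles alternatives in which the gene was called and open circles those in which it was not. CAC2 ran from 1.07 to 1.95 and was called in 9 of 15 alternatives, KASI was called in 1 of 14, and BCCP2, KASIII, MOD1 and SSI2 have circles on both sides of 0.

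A list of 40 other genes around the pathway gave 33 that passed the filter, of which 4 were called higher and 2 lower in ddcc, beside 3.03% and 3.45% of all tested genes. The background for the counts of its sublists is the same 3.03% higher and 3.45% lower. The log2 fold change was above 0 in 26 of the 33, beside 51.1% of all tested genes, with a median of 0.69 beside 0.02 for all tested genes. AT3G15690, AT3G02630, AT4G13050 and LACS9, named here after their values were seen, had wild-type means below the filter and passed only through their ddcc values. They could be tested only with a higher ddcc mean, and all of them are among the 26 and in the median. Of 6 other genes listed with acetyl-CoA carboxylase, 1 was called higher, and the list does not separate subunits of the enzyme from proteins that act on it. This was the chloroplast genome locus ATCG00500, which the reference table used here does not annotate, with values of 499 and 491 in ddcc, against 267 and 256 in wild type. Its genotypes were far apart next to the spread within each (log2 fold change 0.92, SE 0.21, limma adjusted p = 0.0181). All genes of the organelle genomes together made up 4.01% and 4.08% of the deposited total in ddcc, against 2.08% and 1.89% in wild type, and the part of this in the value of ATCG00500 was not tested. CAC3, the alpha carboxyltransferase subunit, is named after its values were seen. It had 66.0 and 58.2 in ddcc, against 47.3 and 34.8 in wild type, with no overlap and no call (limma adjusted p = 0.247).

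Of 7 tested genes of the synthesis cycle and the acyl carrier proteins, which hold the growing chain, 2 were called higher and 1 lower. ACP2 had values of 21.4 and 28.8 in ddcc, against 10.2 and 3.08 in wild type (log2 fold change 1.84, SE 0.48, limma adjusted p = 0.0358). Its log2 fold change was 2.51 without wild-type replicate 1 and 1.17 without wild-type replicate 2. ACP3 had 61.2 and 49.8 in ddcc, against 27.5 and 20.2 in wild type (log2 fold change 1.18, SE 0.31, limma adjusted p = 0.0356). For both carriers each ddcc library was above each wild-type library. Their coding sequences are 94.2% identical, and ACP2 also has a copy of 98.4% identity over 125 bases elsewhere in the genome, so that reads could be split between copies. AT2G22230, held in the list as a hydroxyacyl-ACP dehydratase and annotated as a thioesterase superfamily protein, went the other way. Its values were 31.0 and 44.4 in ddcc, against 163 and 67.4 in wild type (log2 fold change -1.46, SE 0.36, limma adjusted p = 0.0254). Wild-type replicate 1 was far above the other wild-type library, and its exons share 19 bases with AT2G22240. The log2 fold change was -0.84 without wild-type replicate 1 and -2.09 without wild-type replicate 2.

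Among 5 tested genes for other acyl-ACP desaturases and the second FATA thioesterase, 0 were called higher and 1 lower. AT3G02620, an acyl-ACP desaturase gene with 67.7% coding identity to SSI2, had values of 17.9 and 24 in ddcc, against 45.8 and 53.9 in wild type. Both ddcc libraries were below both wild-type libraries (log2 fold change -1.20, SE 0.32, limma adjusted p = 0.0357). It is 95% identical to AT3G02610 over 1060 bases, so that its reads are uncertain in origin, and its call was lost with equal totals of nuclear genes (-0.83, adjusted p = 0.11). Of 11 tested genes that supply carbon to the pathway in the plastid, 1 was called higher. PKP-ALPHA, a subunit of the plastid pyruvate kinase that makes pyruvate for acetyl-CoA, had values of 171 and 142 in ddcc, against 73.3 and 90.6 in wild type. The groups were clear of each other (log2 fold change 0.92, SE 0.24, limma adjusted p = 0.0356). Its partner subunit gene PKP-BETA1 and the phosphoenolpyruvate translocator gene CUE1, both named after their values were seen, just missed the threshold with log2 fold changes of 0.82 (limma adjusted p = 0.0621) and 1.70 (0.0566). CAC3 and CUE1 have copies of 97.0% identity over 167 bases and 98.2% over 112 bases elsewhere in the genome, which makes their reads uncertain.

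Among 4 tested genes for cofactors and export 0 were called. HCS1, which attaches biotin to carboxylases, had the highest mean, with 15.5 and 21.6 in ddcc, against 22.2 and 14.9 in wild type. LACS9, a plastid long-chain acyl-CoA synthetase, had the smallest p (0.237 before and 0.529 after adjustment in limma), at a log2 fold change of 0.90. All 6 calls of this list were lost without ddcc replicate 1 (adjusted p 0.379 to 0.479), without ddcc replicate 2 (0.40 to 0.487), with no filter (0.0536 to 0.124) and in limma without a trend (0.156 to 0.21). Without wild-type replicate 1 the calls of ATCG00500 (0.0483) and ACP2 (0.0433) were kept and the others lost (0.0725 to 0.208), and without wild-type replicate 2 that of AT2G22230 (0.0255) was kept and the others lost (0.0581 to 0.196).

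The regulators were detected at low levels. WRI1 had values of 6.98 and 3.77 in ddcc, against 1.45 and 2.57 in wild type, on 9 reads against 5. Its ddcc libraries were above its wild-type libraries, with a log2 fold change of 0.93 (SE 0.59) that did not pass the test (limma adjusted p = 0.399). WRI4, a relative known from cuticular wax synthesis, overlapped (log2 fold change -0.11, SE 0.66, limma adjusted p = 0.948). WRI3, with the symbol ADAP in the annotation, had 1 read in ddcc and 0 in wild type and was not tested, and 614 of its exon bases overlap AT1G16070.

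Fatty acid synthesis outside the plastid gave no call. ACC1, the acetyl-CoA carboxylase of the cytosol, had values of 156 and 148 in ddcc and 129 in each wild-type library (log2 fold change 0.23, SE 0.22, limma adjusted p = 0.614), and it has a copy of 96.6% identity over 116 bases. Of 4 tested genes of mitochondrial fatty acid synthesis 0 were called and 1 was higher at an unadjusted limma p under 0.05, and their median log2 fold change was -0.18. AT3G45770, held in the list as a mitochondrial enoyl reductase, had the highest mean, with 106 and 94.5 in ddcc, against 110 and 158 in wild type. The mitochondrial acyl carrier protein gene mtACP2 had the smallest p, with 161 and 118 in ddcc, against 97.9 and 73.1 in wild type (log2 fold change 0.69, limma adjusted p = 0.134). A difference between the plastid and the mitochondrial genes was not tested.

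Marker lists of the tissues that a seed sample can hold were read beside these values, and their part in the differences was not tested. Single markers are named after their values were seen. The 5 embryo markers summed to 2.39% and 2.54% of the deposited total in ddcc, against 2.60% and 2.15% in wild type, and 1 of them, LEC1, was at 0 in all libraries. As normalised read counts the sum was 31636 and 35896 in ddcc, against 47134 and 36626 in wild type, lower in both ddcc libraries. This sum came nearly all from CRA1 and OLEO1, and its members differed in direction. ABI3, a transcription factor gene of seed maturation, was called higher in ddcc, with 397 and 562 against 271 and 255 in wild type (log2 fold change 0.84, limma adjusted p = 0.0422). OLEO1, which encodes an oil body protein, was lower in both ddcc libraries without a call (log2 fold change -0.69, limma adjusted p = 0.281). CRA1 was also lower in both without a call, with 20799 and 20900.5 in ddcc against 22135.1 and 21045.2 in wild type. Its log2 fold change was -0.05 (limma adjusted p = 0.953). SESA1 overlapped, with a log2 fold change of -0.12 (limma adjusted p = 0.869).

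The 5 endosperm markers summed to 1.79% and 2.28% in ddcc, against 0.770% and 0.924% in wild type, nearly all from EPR1, which was not called (log2 fold change 0.90, limma adjusted p = 0.15). FIS2 went the other way, with 4.65 and 2.52 in ddcc against 10.4 and 13 in wild type, on 6 and 30 reads, and was not called either (log2 fold change -1.39, limma adjusted p = 0.125). AGL62 overlapped (log2 fold change -0.23), and RGE1 and PHE1 were at 0. The 6 seed coat markers summed to 0.00882% and 0.00771% in ddcc, against 0.00615% and 0.00253% in wild type, with BAN and TT2 at 0. As normalised read counts the sum was 117 and 109 in ddcc, against 112 and 43.1 in wild type, and overlapped. Outside wild-type replicate 2 most of it was TT10, a laccase gene of seed coat pigment. TT10 had 82.4 and 65.6 in ddcc against 61.4 and 6.78 in wild type (log2 fold change 1.71, limma adjusted p = 0.121). TT12 was lower in both ddcc libraries (log2 fold change -0.31). Of the 4 silique wall markers IND, AGL8 and SHP2 were at 0, and SHP1 overlapped. Of 3 green vegetative markers RBCS1A was called higher in ddcc, with 69.7 and 71.3 against 4.74 and 11.4 in wild type, while CAB2 was at 0 in both ddcc libraries and LHB1B1 at 0 in all.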

How the data were processed

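The authors deposited normalised read counts, a signal that is not whole and not divided by gene length, for 4 libraries, 2 per genotype. Bowtie 0.12.7, edgeR 3.10.5 and TAIR10 are named per the submitters' processing notes, without counting settings. Inverting a library-size equalisation gave whole reads within 0.01 for 100% of value pairs. These reads served for depths, 95% counting intervals and voom, and no count test was run. Values were tested as log2(value + 1.56), 1.56 being the mean column total over 1e6, which understates changes of low genes. The fit was limma 3.58.1 in R 4.3.3 with a variance trend, over 15780 genes with a mean of at least 1.56, with calls at an adjusted p under 0.05 (Benjamini-Hochberg). Single values had exact permutation tests. The 15 alternatives changed the pseudocount, filter, scaling, moderation, block, reads or libraries. The enzymes and lists were chosen with earlier results of these data known. Genes named were the 10 enzymes, every called pathway gene, the highest mean and smallest p of each list, WRI1, WRI3, WRI4 and DRM2. DRM1, CMT2 and CMT3 were added later, and others are stated as chosen later. Both wild-type tables carry replicate 2 in their headers but hold different values. Annotation came from TAIR10.1, with 26714 of 27416 loci matched, and BLAST+ 2.17.0 searched for copies (95% identity, 100 bases or more). The fit was tested on simulated data. Nothing states that libraries came from separate plants, so p-values measure the spread between these libraries.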

Additional observations from a re-analysis of the deposited data

How the results depend on the processing

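Over the 15 alternatives 1 of the 10 enzymes was called in most, 0 with no filter and in limma without a trend, 2 with equal totals of nuclear genes, and 0 whichever library was left out. Of the other pathway genes, 6 as reported, 0 were called with no filter and without a trend, 10 with equal nuclear totals, and 0 to 2 without 1 library. Of all tested genes, 1023 as reported, 336 were called with no filter, 33 without a trend, 1640 with equal nuclear totals and 1 to 467 without 1 library. The share called higher, 46.7% as reported, was 38.6% without wild-type replicate 2, 60.6% without wild-type replicate 1, 43.1% with the filter at a mean of 5 units, 56.8% with no filter, 57.2% with quantile normalisation, 87.5% with equal nuclear totals and 97.0% without a trend. Signs turned for BCCP2 with quantile normalisation (-0.19) and for KASIII (-0.0046), and for MOD1 with equal nuclear totals (0.12) and voom (0.046). Without 1 library, log2 fold changes ran from -0.51 to 0.69 for BCCP2 (also -0.0042 without wild-type replicate 2), from -0.074 to 0.60 for KASIII, from -0.44 to 0.19 for MOD1 and from -0.13 to 0.60 for SSI2, and the log2 ratio of FATA1 to AT4G13050 from -0.61 to 1.13, that of BCCP2 to BCCP1 from -1.8 to -0.44 and that of KASII to KASI from -1.07 to -0.23. The cause was not tested. CAC2, BCCP1, KASI, KASII, FATA1 and FATB kept their sign in all alternatives fitted. At a mean of 5 units 4 of the 10 enzymes could be tested. Same-numbered libraries did not deviate together across genes (correlation -0.0455). With 2 libraries per genotype this cannot decide whether the numbers mark a shared batch. With a replicate block 1 enzyme (CAC2, adjusted p = 0.0169), 8 other pathway genes and 1381 of all genes were called. Leaving out a library leaves 1 for its genotype, assumed to vary like the others. Depth limits the 7 enzymes other than CAC2, SSI2 and FATB, with at most 19 reads per genotype.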
